A study of Mus musculus with 12 samples.

Results

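Levels of mRNA were described for 5 channel genes of the lens, the connexins Gja1 and Gja3 and the aquaporins Mip, Aqp1 and Aqp5, which are 5 of the 45859 genes in each of the 4 deposited tables. Each was found by its symbol, and each had 1 row in every table. The libraries came from a mouse model of cataract surgery, in which the lens fiber cells were taken out of the eye and the lens capsule with its attached lens epithelial cells (LCs) was collected at once, 0 h post cataract surgery (PCS), or 24 h PCS. The question behind the study was how integrin β8, encoded by Itgb8, takes part in posterior capsular opacification, the scarring of the capsule that can follow the operation. WT adults were C57BL/6, aged 2 months. β8ITG-cKO mice, also aged 2 months, were of a mixed C57BL/6 and 129S1/Sv strain and carried floxed Itgb8 alleles with MLR10-Cre, a lens transgene that recombines epithelial and fiber cells alike, beginning in the embryo. Genotype and strain therefore cannot be told apart. Each of the 4 conditions (WT 0 h, WT 24 h, β8ITG-cKO 0 h and β8ITG-cKO 24 h) had 3 libraries (r1, r2 and r3), 12 in all, and each library pooled 5 capsules.

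Connexins form the hexameric half-channels that dock into gap junctions between neighbouring cells. The avascular lens relies on them, since ions, metabolites and glutathione reach its inner fibers by passing from cell to cell. Gja1 (connexin 43) is a connexin of the lens epithelium, and Gja3 (connexin 46) couples fiber cells. Aquaporins are tetrameric water channels. Mip (aquaporin 0) is the most abundant membrane protein of lens fibers and also holds their membranes together, Aqp1 is the water channel of the epithelium, and Aqp5, known from secretory epithelia and cornea, is found in lens epithelium and fibers. Mutations of Gja3 and Mip cause cataract.

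Values are FPKM (fragments mapped to a gene, scaled to transcript length and to all mapped fragments), which are per length and can be compared between genes. Summed FPKM ranged from 446531 to 740140 per library, and the 10 most abundant genes took 36.0% to 49.6% of it. Absolute read depth is unknown, and relative depth, read from the steps of low values, ranged from 0.875 to 1.10. Differences were tested with limma-trend on log2(FPKM + 1) over all genes that averaged 0.5 FPKM or more, and a gene passed at a Benjamini-Hochberg adjusted p of at most 0.05. All 5 genes passed the filter on low values in every comparison. The p-values measure the spread between pools of capsules, and an exact permutation test of 3 against 3 libraries cannot go below 0.1. Lens markers were present throughout, and the 10 lens fiber markers summed to 3620 to 5069 FPKM in WT 0 h and 4769 to 5501 FPKM in β8ITG-cKO 0 h libraries. Cryaa, a lens crystallin gene, was listed at 0 in WT 0 h r2. Retina markers summed to 1183.5 FPKM in WT 0 h r2 against 351 and 146 FPKM in the other WT 0 h libraries, and to 871 to 1019 FPKM in the β8ITG-cKO 24 h libraries against 77.0 to 144 FPKM at WT 24 h. The floxed part of Itgb8 is exon 4, so a value over the whole gene checks the labels only in part. It did not separate the genotypes, with means of 8.82 FPKM (WT 0 h), 9.01 FPKM (WT 24 h), 6.24 FPKM (β8ITG-cKO 0 h) and 10.5 FPKM (β8ITG-cKO 24 h), so the direction of every genotype comparison rests on the labels. Its adjusted p by limma-trend was 0.209 at 0 h and 0.486 at 24 h.

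The windows around the starts of 3 of the genes are shown. In both genotypes Mip and Gja3 had the largest falls after surgery, and Gja1 had the smallest absolute change. All 5 genes matched the RefSeq promoter table (GRCm38.p6), and each window runs from 250 bases before to 50 bases after the start, 300 bases in all, 5′ to 3′ on the gene's strand. The starts are those of RefSeq, and the GENCODE starts in the gene positions given below differ from them. Capitals mark matches to 4 motifs searched on both strands. The TATA box was searched as TATAAA. An AP-1 site, bound by Fos and Jun proteins, was searched as TGANTCA. A Maf half-site, bound by the Maf factors of lens genes, was searched as TGCTGA. The GC box, bound by Sp1, was searched as GGGCGG. No matches overlap each other in these windows. Mip lies on the + strand of chromosome 10 (chr10:128225560-128225859), Gja3 on the - strand of chromosome 14 (chr14:57057981-57058280, 1 of 2 entries) and Gja1 on the + strand of chromosome 10 (chr10:56377050-56377349).
Mip: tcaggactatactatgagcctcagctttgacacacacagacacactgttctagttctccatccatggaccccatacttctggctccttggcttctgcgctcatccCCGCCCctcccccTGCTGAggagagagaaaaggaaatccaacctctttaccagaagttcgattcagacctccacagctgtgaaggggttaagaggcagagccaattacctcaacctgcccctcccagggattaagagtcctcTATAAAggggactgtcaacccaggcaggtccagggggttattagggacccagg
Gja3: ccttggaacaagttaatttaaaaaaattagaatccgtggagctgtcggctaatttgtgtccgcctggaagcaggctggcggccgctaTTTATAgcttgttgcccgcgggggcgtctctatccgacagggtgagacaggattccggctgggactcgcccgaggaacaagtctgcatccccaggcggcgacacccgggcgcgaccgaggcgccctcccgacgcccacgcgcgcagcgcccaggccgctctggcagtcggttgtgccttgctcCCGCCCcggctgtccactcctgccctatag
Gja1: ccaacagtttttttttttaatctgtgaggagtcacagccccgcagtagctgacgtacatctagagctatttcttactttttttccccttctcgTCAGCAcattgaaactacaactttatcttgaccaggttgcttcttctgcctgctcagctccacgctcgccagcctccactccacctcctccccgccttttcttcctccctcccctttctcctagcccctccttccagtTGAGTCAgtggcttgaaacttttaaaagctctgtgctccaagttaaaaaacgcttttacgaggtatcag
With the RefSeq start counted as base 1, the Mip window held TATAAA from base -3, a Maf half-site from base -132 and a GC box on the other strand from base -145. The GENCODE start of Mip, 128225838, is farther downstream, so TATAAA lies farther before it. The Gja3 window held TTTATA, the TATA box on the other strand, from base -163 and a GC box on the other strand from base 21. The Gja1 window held TGAGTCA from base -19 and TCAGCA, a Maf half-site on the other strand, from base -157. The Aqp1 window (chr6:55336049-55336348, + strand) had 1 GC box, and the Aqp5 window (chr15:99590778-99591077, + strand, 79.7% GC) had 3. Nearly all of the Aqp5 window lies inside the GENCODE gene, which begins at 99590782. Of 32851 promoter windows of the same length, 13.6% held the TATA box, 7.81% the AP-1 site, 19.5% the Maf half-site and 35.7% the GC box. The matches are descriptions of letters, not sites of binding.

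After fiber cell removal in WT mice, the fiber cell channels Gja3 and Mip fell while Gja1, Aqp1 and Aqp5 did not pass the test. Gja3 fell 3.46-fold and Mip fell 7.57-fold between group means within 24 h. The count was 2 of 5 genes past the threshold, both lower, where 29.7% of the 15146 genes tested passed in either direction and 8.81% passed as lower. Both also met the study's size criteria (a fold above 2, a difference above 2 FPKM and at least 2 FPKM in 1 group), as 14.3% of genes did. The WT libraries of the 2 times did not overlap for these same 2 genes, as for 46.9% of genes. Mip and Gja3 are on a list of lens genes that the study chose for their fall in these same libraries, so their direction is not independent evidence. In β8ITG-cKO mice all 5 genes passed the test as lower at 24 h, where 46.1% of 15237 genes passed in either direction and 10.7% as lower. Gja3, Mip and Aqp5 met the size criteria there, as 15.1% of genes did, and Gja1 and Aqp1 did not. The libraries of the 2 times did not overlap for any of the 5, as for 56.9% of genes.

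The median gene rose by 0.16 on the log2 scale in WT and by 0.23 in β8ITG-cKO LCs between the times. With the libraries rescaled to the same median, the split of all genes past the threshold moved from 3165 higher of 4500 to 2199 higher of 4646 in WT and from 5394 of 7030 to 3217 of 6225 in β8ITG-cKO LCs. No call of the 5 genes changed. On that scale Gja1 was at -0.32 (adjusted p = 0.109 by limma-trend) in WT and -0.61 (adjusted p = 0.000701) in β8ITG-cKO LCs, and Aqp1 at 0.04 (adjusted p = 0.915) and -0.91 (adjusted p = 0.000101).

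**Figure D1:**
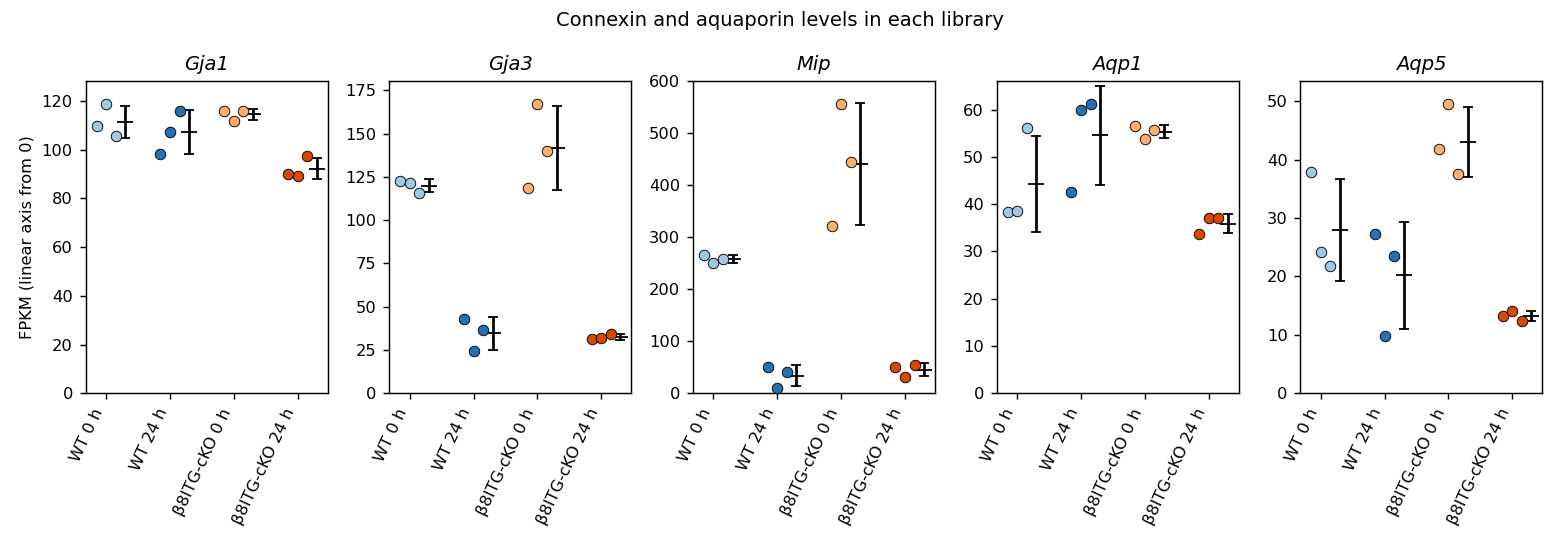
FPKM of each gene (linear axis from 0, own scale per gene) in the 3 libraries of each condition, with points for libraries r1 to r3 from left to right and the mean with its SD beside them. Gja3 and Mip sit far lower at 24 h in both genotypes, the 3 β8ITG-cKO 24 h points of Aqp1 lie between 33.6 and 37.1 FPKM, and Gja1 stays between 89.2 and 119 FPKM in all libraries.

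Gja1 (gene on chr10:56377330-56402513, + strand, GRCm38) had nearly the same level at both times in WT LCs. Its values were 110, 119 and 106 FPKM at WT 0 h and 98.1, 107 and 116 FPKM at WT 24 h. The groups overlapped, with means of 111 ± 6.61 and 107 ± 8.93 FPKM (SD, n = 3 each). The log2 change was -0.06, with a 95% confidence interval of -0.39 to 0.27 and an adjusted p of 0.789 by limma-trend. In β8ITG-cKO LCs the values were 116, 112 and 116 FPKM at 0 h and 90.1, 89.2 and 97.2 FPKM at 24 h. All 3 libraries at 24 h were below all 3 at 0 h. Gja1 fell by 0.31 on the log2 scale (SE 0.09, adjusted p = 0.0217 by limma-trend), a fall of 1.24-fold between means of 115 ± 2.30 and 92.2 ± 4.34 FPKM (SD, n = 3 each). The call is a narrow one, since the adjusted p by limma-trend was 0.053 without β8ITG-cKO 0 h r1, 0.0816 without 0 h r3 and 0.0787 without 24 h r2, with the change between -0.35 and -0.29 in all 6 such fits.

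Gja3 (chr14:57034460-57058100, - strand) fell in both genotypes. Its 3 libraries read 123, 121 and 116 FPKM in WT at 0 h, then 43.1, 24.2 and 36.8 FPKM at 24 h. Every library at 24 h was far below the lowest at 0 h, and r2 was the lowest of the 24 h libraries. Means were 120.0 ± 3.82 and 34.7 ± 9.63 FPKM (SD, n = 3 each), for a change of -1.80 on the log2 scale (SE 0.21, adjusted p = 0.00132 by limma-trend). In β8ITG-cKO LCs the readings were 118, 167 and 140 FPKM (0 h) against 31.3, 32.0 and 34.4 FPKM (24 h). The 24 h libraries lay close together, whereas the 0 h libraries spread widely. The log2 change was -2.08 (SE 0.13, adjusted p = 3.08e-05 by limma-trend), a fall of 4.35-fold between means of 142 ± 24.4 and 32.6 ± 1.63 FPKM (SD, n = 3 each). In bulk tissue, fewer cells of a type and less RNA per cell cannot be told apart. Lens fiber markers moved with Gja3 and Mip: 8 of the 9 tested of 10 fell in WT, where 8.81% of all genes did and their sum was 728 to 1409 FPKM at 24 h. In β8ITG-cKO LCs 9 of 9 fell, where 10.7% of all genes did, and the sum was 699 to 827 FPKM. Lens epithelium markers fell as well, 5 of 8 in WT (Foxe3, Cryab, Pitx3, Slc38a3 and Npnt, with Cdh1 higher) and 6 of 8 in β8ITG-cKO LCs (Foxe3, Cdh1, Cryaa, Cryab, Pitx3 and Npnt). Their sum, mostly crystallin mRNA, was 13501 to 40287 FPKM at WT 0 h (lowest in r2, with Cryaa listed at 0), 17869 to 21510 FPKM at WT 24 h, 40305 to 43035 FPKM at β8ITG-cKO 0 h and 11514 to 13974 FPKM at β8ITG-cKO 24 h. WT 24 h r2, the library lowest in Gja3, also had the lowest fiber marker sum in its group. What part the makeup of cells had in these falls was not tested.

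The ratio of the epithelial to the fiber connexin turned over between the times. Gja1 FPKM was 0.894 to 0.977 of Gja3 FPKM in WT 0 h libraries and 2.28 to 4.44 times Gja3 in WT 24 h libraries. In β8ITG-cKO LCs the ratio went from 0.670 to 0.979 at 0 h to 2.79 to 2.88 at 24 h. No library of either 0 h group reached 1, and none of either 24 h group was below it.

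Mip (chr10:128225838-128231812, + strand) was the most abundant of the 5 genes at 0 h and had the largest fall. Its values were 266, 250 and 259 FPKM at WT 0 h and 51.0, 10.9 and 40.6 FPKM at WT 24 h. The 0 h libraries lay close together, and r2 stood apart at 24 h far below both other libraries. Means were 259 ± 8.01 and 34.2 ± 20.8 FPKM (SD, n = 3 each), for a change of -3.13 on the log2 scale (SE 0.49, adjusted p = 0.00368 by limma-trend), and 99.3% of the genes tested had a smaller absolute change. In β8ITG-cKO LCs the values were 323, 556 and 445 FPKM at 0 h and 50.4, 31.7 and 55.1 FPKM at 24 h. Here the 0 h libraries were the scattered ones, with r1 lowest and r2 highest. Means were 441 ± 117 and 45.7 ± 12.4 FPKM (SD, n = 3 each), for a change of -3.25 on the log2 scale (SE 0.25, adjusted p = 6.55e-05 by limma-trend) and a fall of 9.65-fold. The neighbouring Gm26847, annotated as a lincRNA on the opposite strand, overlaps Mip by 1223 bases, and the deposited locus of Mip is one block shared with Gm26847 and Timeless. Gm26847 was at 0.457 to 0.480 of the Mip level in WT 0 h libraries and at 0.316 to 0.387 in WT 24 h libraries. The library kit marks strand but the counting setting is not given in the sources used here, so reads of the 2 genes in the overlap cannot be told apart.

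Aqp1 (chr6:55336432-55348555, + strand) was the gene that passed the test for a genotype difference in its response to surgery, by a narrow margin. Its values were 38.3, 38.6 and 56.1 FPKM at WT 0 h and 42.5, 60.0 and 61.1 FPKM at WT 24 h. The groups overlapped, because r3 at 0 h was above r1 at 24 h. The means were 44.3 ± 10.2 and 54.6 ± 10.4 FPKM (SD, n = 3 each), and the log2 change of 0.30 (95% confidence interval -0.19 to 0.79, adjusted p = 0.316 by limma-trend) did not pass. In β8ITG-cKO LCs the values were 56.6, 53.8 and 55.7 FPKM at 0 h and 33.6, 37.0 and 37.1 FPKM at 24 h. Both groups were tight and did not overlap. Aqp1 fell by 0.61 on the log2 scale (SE 0.09, adjusted p = 0.00101 by limma-trend), from 55.4 ± 1.45 to 35.9 ± 2.00 FPKM (SD, n = 3 each), a 1.54-fold fall.

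The difference between these 2 responses was tested as a genotype by time interaction over all 12 libraries. Aqp1 passed it, with a difference of -0.91 on the log2 scale (SE 0.24, 95% confidence interval -1.43 to -0.39, adjusted p = 0.0344 by limma-trend), β8ITG-cKO minus WT. It was the only 1 of the 5 genes to pass, where 9.39% of 15262 genes passed in either direction and 2.56% passed as lower. The call was a narrow one: it held in 3 of the 12 fits that left out 1 library, with adjusted p by limma-trend from 0.00726 to 0.0821 and differences from -1.09 to -0.82, and without the filter on low values the adjusted p was 0.0615. Red blood cells and small vessels are known for Aqp1. The 8 red blood cell markers summed to 68.5 to 153 FPKM at WT 0 h, 36.0 to 220 FPKM at WT 24 h, 6.72 to 15.9 FPKM at β8ITG-cKO 0 h and 87.4 to 195 FPKM at β8ITG-cKO 24 h. The 7 endothelial markers summed to 0.757 to 4.36, 0.821 to 2.44, 1.5004 to 2.44 and 5.90 to 8.12 FPKM in the same order of conditions. Both sums were higher in all β8ITG-cKO 24 h than in all β8ITG-cKO 0 h libraries. All 5 red blood cell and all 3 endothelial markers tested rose there, among them Kdr by 1.52 (adjusted p = 0.000653 by limma-trend). Of these, Alas2, Pecam1 and Cdh5 had 0 h means of 0.317, 0.237 and 0.285 FPKM. They passed the filter on low values only through their 24 h libraries. The other markers of both lists averaged under 0.5 FPKM and were not tested. Of those, Cldn5 was at 0.48 to 0.53 FPKM at 0 h and 0.27 to 0.69 FPKM at 24 h. Ermap was at 0.09 to 0.28 and then 0 to 0.07 FPKM, and Emcn at 0 to 0.11 and then 0.29 to 0.87 FPKM. The part of these cells in the Aqp1 result was not tested.

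Aqp5 (chr15:99590782-99594829, + strand) fell in β8ITG-cKO LCs and did not pass in WT. Its values were 37.8, 24.2 and 21.7 FPKM at WT 0 h and 27.2, 9.80 and 23.5 FPKM at WT 24 h. The groups overlapped, with r1 the highest library at both times and r2 at 24 h far below the rest. The means were 27.9 ± 8.67 and 20.2 ± 9.17 FPKM (SD, n = 3 each), and the log2 change was -0.53 (95% confidence interval -1.39 to 0.34, adjusted p = 0.315 by limma-trend). In β8ITG-cKO LCs the values were 41.9, 49.5 and 37.6 FPKM at 0 h and 13.2, 14.1 and 12.4 FPKM at 24 h. Every 24 h library was far below every 0 h library. Aqp5 fell by 1.62 on the log2 scale (SE 0.12, adjusted p = 5.16e-05 by limma-trend), from 43.0 ± 6.03 to 13.2 ± 0.85 FPKM (SD, n = 3 each), a 3.25-fold fall. Corneal epithelium also makes Aqp5, and its 9 markers summed to 543 to 924 FPKM at β8ITG-cKO 0 h and 142 to 193 FPKM at β8ITG-cKO 24 h, nearly all of it Aldh3a1. Without that gene the sums were 7.75 to 13.1 FPKM and 3.79 to 6.48 FPKM. All 3 corneal markers tested there fell, with log2 changes of -2.196 for Aldh3a1, -1.60 for Krt4 and -0.98 for Krt15 (adjusted p = 0.000177, 6.01e-05 and 0.0356 by limma-trend). The other markers of the list averaged under 0.5 FPKM in the β8ITG-cKO libraries and were not tested. Among them, Krt12 was at 0, 0.19 and 0.12 FPKM at 0 h and 0.23, 0.50 and 0.27 FPKM at 24 h. Krt14 was at 0.04 to 0.45 FPKM and then 0.25 to 0.77 FPKM, whereas Upk1b was at 0 to 0.34 FPKM and then 0 to 0.05 FPKM. In WT 0 of 8 tested passed, and without Aldh3a1 the sum was 8.04 to 11.5 FPKM at 0 h and 15.1, 6.01 and 63.7 FPKM at 24 h, r3 standing apart through Krt15 (46.4 FPKM). Their part in the Aqp5 level was not tested. The interaction of -1.09 (95% confidence interval -2.05 to -0.14, adjusted p = 0.144 by limma-trend) did not pass, so a genotype difference in the Aqp5 response was not shown. Without WT 24 h r2, the interaction was -1.52 with an adjusted p of 0.0135 by limma-trend. That was the 1 of 12 fits without 1 library that passed, with adjusted p up to 0.266 by limma-trend, and 0 of 7 other settings passed. The deposited locus of Aqp5 is shared with Aqp2, Aqp6 and Gm34765, which were all below 1 FPKM in every library.

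**Figure D2:**
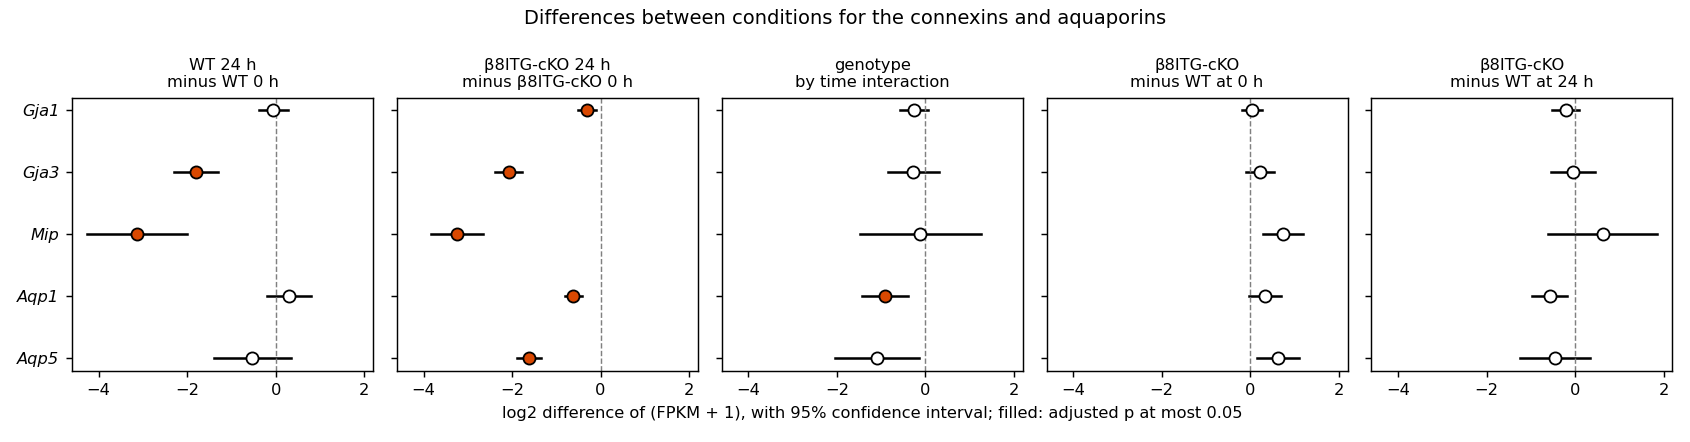
Log2 differences of (FPKM + 1) with 95% confidence intervals (horizontal lines) for the 5 genes in the 5 comparisons, where filled points have an adjusted p of at most 0.05. Mip and Gja3 lie farthest left in both changes over time, all 5 points are filled for β8ITG-cKO, and the Aqp1 point is the only filled one in the interaction, at -0.91.

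The genotypes were next compared at each time. At 0 h PCS none of the 5 genes passed, where 6.94% of 14708 genes did. All 5 estimates were above 0, at 0.04 for Gja1, 0.23 for Gja3, 0.73 for Mip, 0.34 for Aqp1 and 0.64 for Aqp5 on the log2 scale, β8ITG-cKO minus WT. The unadjusted p was under 0.05 for Mip (0.00546) and Aqp5 (0.0154) by limma-trend, with adjusted p of 0.0632 and 0.110. The libraries of the genotypes did not overlap at 0 h for 1 of the 5 genes, Mip, as for 30.8% of genes, and the 95% confidence interval of the difference was 0.29 to 1.18. Leaving out a single library brought Mip (0.94 without β8ITG-cKO 0 h r1, adjusted p = 0.0312), Aqp1 (0.51 without WT 0 h r3, adjusted p = 0.0329) or Aqp5 (0.87 without WT 0 h r1, adjusted p = 0.0459) past the limma-trend threshold. The sum of the 9 corneal epithelium markers was 543 to 924 FPKM at β8ITG-cKO 0 h and 216 to 276 FPKM at WT 0 h. Of 5 tested, Aldh3a1 was higher in β8ITG-cKO LCs by 1.58 (adjusted p = 0.00801 by limma-trend) and Dsg1a was lower by a difference of -0.86 (adjusted p = 0.0285). The corneal keratin Krt12 was at most 1.27 FPKM in both groups. Their part in the Aqp5 difference was not tested.

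At 24 h PCS none of the 5 genes passed between the genotypes either, where 6.29% of 15366 genes did. The differences on the log2 scale were -0.21 for Gja1, -0.05 for Gja3, 0.62 for Mip, -0.57 for Aqp1 and -0.46 for Aqp5. For Aqp1 the libraries did not overlap, at 42.5 to 61.1 FPKM in WT and 33.6 to 37.1 FPKM in β8ITG-cKO, and for Gja1 they did not overlap either, at 98.1 to 116 FPKM and 89.2 to 97.2 FPKM. These were 2 of the 5 genes, where 26.5% of genes had groups that do not overlap. The unadjusted p was under 0.05 only for Aqp1 (0.0102, adjusted p = 0.101 by limma-trend). Without WT 24 h r1 Aqp1 differed by -0.74 (adjusted p = 0.0355) and without WT 24 h r2 Aqp5 differed by -0.89 (adjusted p = 0.0227 by limma-trend). The 95% confidence interval for Gja3 at 24 h, -0.54 to 0.44, leaves room for a difference of either sign, and that for Mip, -0.61 to 1.85, is wider.

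The order of the 5 genes by level changed with surgery. At 0 h it was Mip, Gja3, Gja1, Aqp1 and Aqp5 in both genotypes. In WT 0 h libraries the ranges of Gja3 and Gja1 overlapped, although Gja3 was the higher in all 3 libraries, and in β8ITG-cKO 0 h libraries no neighbours overlapped. At 24 h Gja1 came first in both genotypes with no overlap with the next gene. Behind it the WT order was Aqp1, Gja3, Mip and Aqp5, with all neighbouring ranges overlapping, and the β8ITG-cKO order was Mip, Aqp1, Gja3 and Aqp5, where only Aqp5 stood clear. Mip FPKM was 4.62 to 6.96 times Aqp1 FPKM at WT 0 h and 0.182 to 1.20 times at WT 24 h. In β8ITG-cKO libraries the same ratio went from a median of 7.99 at 0 h to a median of 1.49 at 24 h.

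Of the 17 connexin genes described here 6 reached 1 FPKM in any library, and Gjb1 was listed at 0 in all. Among the 6 tested in WT, 1 rose (Gjb5) and 1 fell (Gja3), where 29.7% of all genes passed in either direction, with a median log2 change of 0.38 beside 0.16 over all genes tested. Among the 4 tested in β8ITG-cKO LCs, 2 rose (Gjc1 and Gjd2) and 2 fell (Gja1 and Gja3), where 46.1% of all genes passed, with a median of 0.29 beside 0.23.

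Gjb5, a connexin of surface epithelia, read 0.044, 0 and 0.257 FPKM at WT 0 h and 2.27, 1.93 and 0.446 FPKM at WT 24 h. Every 24 h library was above every 0 h library, with r3 well below the other two. The rise was 1.13 on the log2 scale (SE 0.32, adjusted p = 0.0319 by limma-trend). In β8ITG-cKO libraries Gjb5 read 0.076, 0 and 0 FPKM at 0 h and 0.475, 0.744 and 0.661 FPKM at 24 h. Those groups did not overlap either, but its mean over them was under 0.5 FPKM, so it was not tested there. Gjd2 (connexin 36, of neurons) rose in β8ITG-cKO LCs from a mean of 0.272 to 1.37 FPKM (log2 change 0.90, adjusted p = 0.00241 by limma-trend), and at 24 h it was higher there than in WT by 1.09 (adjusted p = 0.00858). Retina markers rose in the same libraries, and their part in the Gjd2 level was not tested. Gjb5 and Gjd2 were named after their values were seen.

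Gjc1 (connexin 45) was at 1.30 to 2.77 FPKM in WT 0 h libraries and rose in β8ITG-cKO LCs by 1.06 (adjusted p = 0.00116 by limma-trend), beside a change of 0.82 (adjusted p = 0.109) in WT. The interaction for Gjc1 did not pass (adjusted p = 0.773), so the genotypes were not shown to differ.

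**Figure D3:**
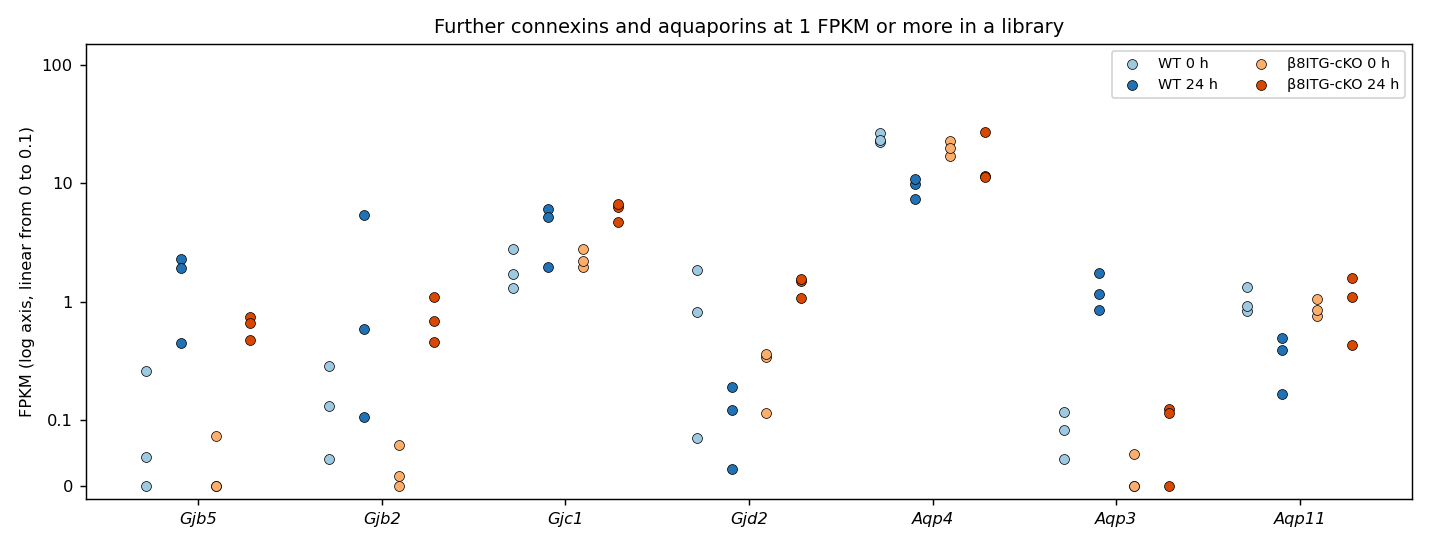
FPKM (log axis, linear from 0 to 0.1) of further connexins and aquaporins that reached 1 FPKM in a library, with a point per library and a colour per condition. The 3 WT 24 h points of Aqp4 lie below all WT 0 h points, the 3 β8ITG-cKO 24 h points of Gjd2 lie above 1 FPKM, and Aqp3 reaches 0.855 to 1.74 FPKM only in WT 24 h libraries.

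Of 12 aquaporin genes 6 reached 1 FPKM in a library. In WT, 1 of 6 tested rose and 2 fell (median log2 change -0.56 beside 0.16 over all genes), where 29.7% of all genes passed and 8.81% passed as lower. In β8ITG-cKO LCs 0 of 5 rose and 3 fell (median -0.61 beside 0.23), where 46.1% passed and 10.7% as lower. Aqp4, a water channel of glia and Müller cells, was at 22.3, 26.6 and 23.0 FPKM at WT 0 h and 9.77, 7.41 and 10.8 FPKM at WT 24 h. It fell by 1.28 on the log2 scale in WT (SE 0.17, adjusted p = 0.00197 by limma-trend). In β8ITG-cKO LCs it went from 22.9, 17.1 and 19.8 FPKM to 11.6, 11.2 and 26.9 FPKM, with r3 at 24 h above all other libraries of that genotype, and did not pass (-0.36, adjusted p = 0.373). The retina marker sums, 871 to 1019 FPKM in those 24 h libraries and 184 to 339 FPKM in the 0 h libraries, moved upward there. In WT the sums were 146 to 1183.5 FPKM at 0 h and lower at 24 h, at 77.0 to 144 FPKM. WT 0 h r2, the highest WT library in Aqp4, also had the highest retina sum. The part of retinal RNA in the Aqp4 level was not tested in either genotype. The interaction for Aqp4 did not pass, so a genotype difference in its response was not shown. Aqp3, a glycerol-permeable aquaporin of surface epithelia, rose in WT from a mean of 0.0807 to 1.25 FPKM (log2 change 1.04, adjusted p = 0.00798 by limma-trend). It was named here after its values were seen, and it passed the filter on low values only through the WT 24 h libraries. At β8ITG-cKO 24 h it read 0.125, 0.115 and 0 FPKM. Between genotypes at 24 h it was the 1 of 6 aquaporins tested that passed, lower in β8ITG-cKO LCs, where 6.29% of all genes passed. Its highest library, WT 24 h r3 (1.74 FPKM), was also the one with Krt15 at 46.4 FPKM. The part of corneal cells in the Aqp3 level was not tested.

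**Figure D4:**
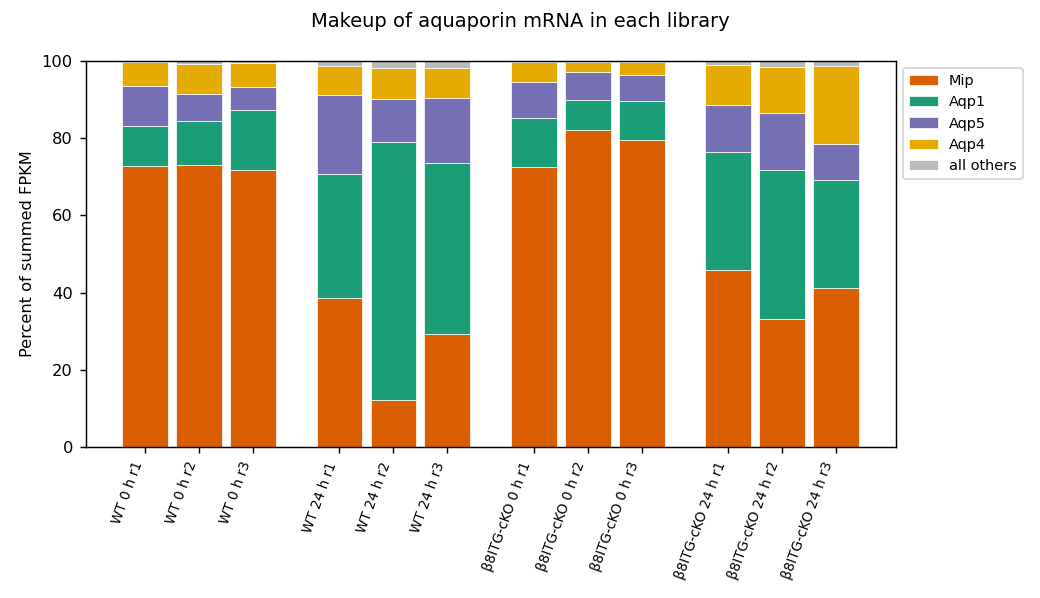
Share of summed aquaporin FPKM taken by each gene in each library, in percent, with the remaining family members in grey. The Mip segment shrinks at 24 h in both genotypes, and Aqp1 is the largest segment in WT 24 h r2 and r3 and in β8ITG-cKO 24 h r2.

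Mip made up 72.6% ± 0.741 of summed aquaporin FPKM at WT 0 h and 26.7% ± 13.4 at WT 24 h (SD, n = 3 each), and 78.0% ± 4.995 and 40.1% ± 6.45 in β8ITG-cKO libraries. Aqp1 made up 12.4% ± 2.72 and 47.8% ± 17.7 in WT, and 10.2% ± 2.40 and 32.4% ± 5.69 in β8ITG-cKO libraries. Aqp5 ranged from 7.81% on average at 0 h in both genotypes to 16.2% at WT 24 h and 12.02% at β8ITG-cKO 24 h. The sum went from 356 ± 12.5 to 120.1 ± 26.6 FPKM in WT and from 561 ± 116 to 113 ± 19.03 FPKM in β8ITG-cKO libraries. Mip thus made up most of the sum at 0 h but not at 24 h. Its share was 12.2% in WT 24 h r2, the library with the lowest Mip level.

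Among genes whose products bind or flank these channels, those of fibers fell. Of 11 junction and channel partners, 2 rose and 4 fell in WT (median log2 change -0.16 beside 0.16 over all genes), and 1 rose and 7 fell in β8ITG-cKO LCs (-0.46 beside 0.23). Of all genes 29.7% passed in WT, 8.81% as lower, and 46.1% in β8ITG-cKO LCs, 10.7% as lower. Lim2, a fiber membrane protein of cell junctions, fell by 3.01 on the log2 scale in WT (adjusted p = 0.00646 by limma-trend) and by 3.11 in β8ITG-cKO LCs (adjusted p = 0.000133). The beaded filament genes Bfsp1 and Bfsp2, whose products bind aquaporin 0, fell by 2.90 and 1.44 in WT and by 3.11 and 1.88 in β8ITG-cKO LCs. Lim2, Bfsp1 and Bfsp2 are also on the fiber marker list. Cav1, the caveolar coat protein, rose by 1.55 in WT (adjusted p = 0.00305 by limma-trend) and by 2.13 in β8ITG-cKO LCs (adjusted p = 5.64e-05). In β8ITG-cKO LCs its means were 0.173 FPKM at 0 h and 4.13 FPKM at 24 h, so it passed the filter on low values through the 24 h libraries.

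Cdh1, E-cadherin of epithelial adherens junctions, showed the same order of group means as Aqp1. Its means were 59.1 ± 3.73 FPKM at WT 0 h, 80.9 ± 7.96 FPKM at WT 24 h, 95.03 ± 2.84 FPKM at β8ITG-cKO 0 h and 42.4 ± 4.46 FPKM at β8ITG-cKO 24 h (SD, n = 3 each). The interaction of -1.59 (SE 0.16, adjusted p = 0.00144 by limma-trend) passed in all 12 fits without 1 library. Between genotypes Cdh1 was higher in β8ITG-cKO LCs at 0 h by 0.68 (adjusted p = 0.0116 by limma-trend) and lower at 24 h by a difference of -0.92 (adjusted p = 0.00982). The rise in WT, 0.44 (adjusted p = 0.0474 by limma-trend), did not pass in any of the 6 fits without 1 library.

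Of 15 genes of ion and water transport in the lens, 14 were tested. In WT 2 rose and 5 fell (median log2 change -0.37 beside 0.16), and in β8ITG-cKO LCs 6 rose and 7 fell (-0.02 beside 0.23), against the same shares of all genes, 29.7% in WT (8.81% lower) and 46.1% in β8ITG-cKO LCs (10.7% lower). The sodium pump subunits Atp1b1 and Atp1b3, which help set the gradients that drive water flow, fell in WT by 1.25 (adjusted p = 0.00194 by limma-trend) and 1.18 (adjusted p = 0.00255) and in β8ITG-cKO LCs by 1.37 and 1.33. Slc12a2, the Na-K-2Cl cotransporter of cell volume control, fell by 1.45 on the log2 scale in β8ITG-cKO LCs (adjusted p = 5.51e-05 by limma-trend). It also fell in WT, with a log2 change of -0.73 (adjusted p = 0.0214 by limma-trend). Slc12a4, a K-Cl cotransporter, rose by 1.04 in WT (adjusted p = 0.00162 by limma-trend) and by 0.69 in β8ITG-cKO LCs (adjusted p = 0.00112). Between genotypes at 0 h, Slc7a11, the cystine importer that feeds glutathione synthesis, was higher in β8ITG-cKO LCs by 0.995 (adjusted p = 0.0174 by limma-trend) and Slc2a1, the glucose transporter, by 0.59 (adjusted p = 0.0342). Slc7a11 kept this call in 4 and Slc2a1 in 1 of 6 fits without 1 library.

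Atp1b2, a sodium pump subunit of neurons and glia, fell in WT by 1.65 (adjusted p = 0.0334 by limma-trend), a call that held in 2 of 6 fits without 1 library. It rose in β8ITG-cKO LCs by 1.71 (adjusted p = 0.000188 by limma-trend), and at 24 h it was higher in β8ITG-cKO than in WT LCs by 2.33 (adjusted p = 0.00464). All 10 retina markers tested rose in β8ITG-cKO LCs and 9 of 10 were higher there than in WT at 24 h. The part of retinal RNA in the Atp1b2 level was not tested. Clcn3, an endosomal chloride-proton exchanger, rose in β8ITG-cKO LCs by 0.70 (adjusted p = 0.000829 by limma-trend).

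Lastly, the genes whose levels ran most like each of the 5 over the 12 libraries were listed, among 7295 genes averaging 5 FPKM or more, as Pearson's r of log2(FPKM + 1) and as a description only, since the libraries fall into 4 conditions. For Gja3 they were Limch1, Gclc and Lrpap1, each with r = 0.99, and Mip followed with r = 0.98. For Mip they were Gm26847 with r = 0.999, Lim2 with 0.99 and Vit with 0.99. Aqp5 was nearest to Slit3 (0.95), Msx1os (0.94) and Pcnx (0.93), and its r with Gja3 was 0.86. Gja1 was nearest to Pik3r1 (0.92), Tox3 (0.91) and Trim24 (0.91). Aqp1 had the lowest best match, with Inppl1 (0.85), Cdh1 (0.85) and Lima1 (0.84), and its r was 0.14 with Mip and 0.24 with Gja3. Gja3, Mip and Aqp5 had r of 0.85 or more with each other. Gja1 lay between, with r of 0.66 with Gja3, 0.56 with Mip, 0.64 with Aqp1 and 0.63 with Aqp5. These values carry the changes between 0 h and 24 h given above, and the Aqp5 change did not pass in WT.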

How the data were processed

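RNA of 12 pools of 5 lens capsules was sequenced from SMARTer Stranded Total RNA-Seq Pico libraries. The submitters' processing notes name FastQC, cutadapt 1.12, TopHat2 2.1.0 and Cuffdiff 2.2.1 with mm10 and GRCm38.p5, and whether reads were counted by strand is not given in the sources used here. The authors deposited 4 tables of FPKM per library, 1 for each pair of conditions, with 45859 genes. Libraries held by more than 1 table had identical values. The authors' means, Cuffdiff group values, fold changes, test statistics, p-values and q-values in the same tables were not used.

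Libraries were grouped by the labels. Limma 3.58.1 (R 4.3.3) was fitted with an intensity trend to log2(FPKM + 1), separately for the 6 libraries of each pair of conditions and over all 12 for the genotype by time interaction, with a minimum mean of 0.5 FPKM and Benjamini-Hochberg adjustment over all genes tested. Fold changes on this scale understate the change of low genes. The fit was tested on simulated data. FPKM hold no counts, so depth per library is unknown and no counting interval is given. The 5 genes, the pathway lists and the marker lists were chosen with earlier results of these data known. From each pathway list, the genes named were the up to 3 largest rises and falls per comparison among those past the threshold with at least 2 FPKM in 1 group, and for each of the 5 genes the 3 most correlated. Gene positions are from GENCODE M21 (GRCm38), and 99.9% of the 33825 symbols found there once overlapped the deposited position. Promoter windows are from RefSeq (GRCm38.p6). Some genes of the pathway lists are not reported here and are left out of the lists' counts.

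Alternatives were pseudocounts of 0.1 and 5, no filter or a mean of at least 2 FPKM, rescaling to the same median, a replicate block, no trend, 1 fit over 12 libraries and leaving out each library.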

Additional observations from a re-analysis of the deposited data

Results flagged for a closer look

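The change over time differed between the genotypes by the interaction test of limma-trend (β8ITG-cKO minus WT, log2 scale, 12 libraries) for 9 of the 38 list genes tested, where 9.39% of all 15262 genes tested passed. Aqp1 was the 1 of the 5 channel genes among them, at -0.91 (adjusted p = 0.0344), with a fall in β8ITG-cKO LCs and no change past the threshold in WT.

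Cdh1 differed by -1.59 (adjusted p = 0.00144). Slc7a11 differed by -1.54 (adjusted p = 0.0155), with means of 16.6 and 35.2 FPKM in WT and 34.3 and 23.0 FPKM in β8ITG-cKO LCs at 0 h and 24 h. Trpv4, a cation channel that senses swelling, differed by -0.87 (adjusted p = 0.0455) and the tight junction scaffold Tjp1 by -0.53 (adjusted p = 0.0353). Cdh1 and Slc7a11 kept their calls in all 12 fits without 1 library, but Tjp1 did so in only 4 and Trpv4 in only 2.

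Atp1b2 differed by 3.36 (adjusted p = 0.00737), Gjd2 (connexin 36, of neurons) by 1.57 (adjusted p = 0.0304), Panx2 by 0.78 (adjusted p = 0.0481) and Clcn3 by 0.78 (adjusted p = 0.0111). Atp1b2 and Clcn3 kept their calls in all 12 fits without 1 library, but Gjd2 did so in only 5 and Panx2 in only 2. Gjd2 reached at most 1.86 FPKM in any library and Panx2 at most 1.81 FPKM, both in WT 0 h r2, and both genes were named here after their values were seen. Retina markers summed to 146 to 1183.5 FPKM at WT 0 h, 77.0 to 144 at WT 24 h, 184 to 339 at β8ITG-cKO 0 h and 871 to 1019 at β8ITG-cKO 24 h, and their part in these values was not tested.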

How the results depend on the processing

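The falls of Gja3 and Mip in both genotypes and of Aqp1 and Aqp5 in β8ITG-cKO LCs kept their direction and their side of the threshold under every alternative run. Read depth is unknown and 3 libraries a condition limit the precision.

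The choices other than leaving out a library changed 1 call of the 5 genes: without the filter on low values, 0 of 5 genes passed the interaction, Aqp1 being at -0.91 (adjusted p = 0.0615 by limma). Rescaling to the same median moved the median change of all genes from 0.16 to -0.05 in WT and from 0.23 to -0.0011 in β8ITG-cKO LCs, and changed the neighbouring pairs with overlapping libraries in the level order from 1 to 2 at WT 0 h (Aqp1 and Aqp5 overlapped) and from 2 to 1 at β8ITG-cKO 24 h (Aqp1 and Gja3 did not).

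Leaving out each library in turn, the count of the 5 genes past the threshold ranged from 0 to 1 at 0 h, at 24 h and for the interaction. In WT over time, Gja1 ranged from -0.12 to 0.0043. In β8ITG-cKO over time, Gja1 ranged from -0.35 to -0.29 and passed in 3 of 6 fits. Between genotypes at 0 h, Mip ranged from 0.55 to 0.94, Aqp1 from 0.25 to 0.51 and Aqp5 from 0.48 to 0.87, each passing in 1 of 6 fits. At 24 h, Gja3 ranged from -0.28 to 0.12, Mip from -0.031 to 1.03, Aqp1 from -0.74 to -0.48 and Aqp5 from -0.89 to -0.19, the last pair passing in 1 of 6 fits each. In the interaction, Mip ranged from -0.77 to 0.30, Aqp1 from -1.09 to -0.82 and Aqp5 from -1.52 to -0.83. There Aqp1 passed in 3 and Aqp5 in 1 of 12 fits. Where a sign turned (Gja1 in WT, Gja3 and Mip at 24 h, Mip in the interaction) the main value had not passed. The cause was not tested.

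The replicate numbers did not pair the libraries: 1 of 18 correlations of same-numbered deviations was over 0.1 (range -0.27 to 0.113). With the number as a block, 2, 5, 0, 0 and 1 of the 5 genes passed in the 5 comparisons, as without it, and 8 calls on other named genes were lost (Atp1b2 in WT, Cdh1, Slc7a11 and Slc2a1 at 0 h, Cdh1 and Clcn3 at 24 h, Tjp1 and Panx2 in the interaction). For the 36 results on other named genes, 456 of 542 alternative fits, added after the data were seen, passed and 0 reversed. Over all genes, the count past the threshold at 0 h was 1020, against 254 with no filter and 269 with the block. At 24 h it was 966, against 574 with a mean of at least 2 FPKM and 1538 in 1 fit over 12 libraries. The interaction count was 1433, against 930 with a mean of at least 2 FPKM. Without 1 library these counts were 136 to 756, 439 to 1108 and 688 to 1921, and over time they were 2512 to 5087 in WT (4500 with all) and 5639 to 6300 in β8ITG-cKO LCs (7030 with all).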
